A study of Mus musculus with 14 samples.

Results

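Kinesins and tubulins, the motors and the building blocks of the microtubule spindle, were examined in single mouse oocytes with and without maternal Kdm1a. Members were the genes of the count table whose symbol begins with Kif and a digit, or with Tuba, Tubb or Tubg, leaving out 2 pseudogene symbols. This gave 60 of the 24064 genes, of which 37 were kinesins, 8 alpha-tubulins, 8 beta-tubulins and 7 gamma-tubulins or proteins of the gamma-tubulin complex.

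RNA of 10 ovulated oocytes was converted to cDNA one oocyte at a time and sequenced. The 4 wt/wt oocytes (wt1, wt3, wt4 and wt5) came from C57BL/6J females with an intact Lsd1/Kdm1a gene. The f/f oocyte (C3) and the 5 mutants (D1, D2, D3, D4 and D7) came from mixed B6;129 females homozygous for a Kdm1a allele whose first exon is flanked by loxP sites. The mutant females, labelled mko/mko, also carried a Zp3-cre transgene, whose promoter drives the recombinase in oocytes and not in other cells. KDM1A, also called LSD1, removes methyl groups from histone H3. The methods of the study give superovulation and an age of 4 to 8 weeks for the f/f and mutant females from which embryos were taken, and the same details for the females that gave these oocytes are not given in the sources used here. Controls are the wt/wt and f/f oocytes together, and only 1 of these 5 shares the strain background and the naming series of the libraries with the mutant oocytes. For C3, D3, D4 and D7, 2 libraries each carry that name, and these were summed. For C3 the name of 1 of the 2 count columns has the letter and the digit exchanged, and it was matched to its library as the last column and the last title left. Since the labels do not say how many females gave the oocytes, p-values measure the spread between these oocytes only.

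Microtubules are hollow polymers of alpha- and beta-tubulin dimers. New microtubules grow from ring complexes of gamma-tubulin, and in the mouse oocyte, which has no centrioles, many dispersed organising centres hold these rings. Kinesins are ATP-driven motors that walk along microtubules with chromosomes, vesicles or other microtubules as cargo, or take microtubules apart at their ends. The mammalian oocyte builds its meiotic spindle and the first spindle of the embryo largely from RNA and protein stored during growth.

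Total counts per oocyte ranged from 1375187 to 6928548, so that 3 counts stood for between 0.456 and 1.83 CPM (read counts scaled to a common library size adjusted by TMM). CPM are relative to the other RNA of the same oocyte and do not show its total RNA content. The TMM factor was 0.651 in C3, 1.30 to 1.37 in the wt/wt oocytes and 0.779 to 0.952 in the mutants, so the place of C3 among the others depends on the scaling. The members took between 0.555 and 0.669% of the counts of each oocyte. Kdm1a had 70, 43, 85 and 27 counts in the wt/wt oocytes, 669 in C3 and 0 to 10 in the mutant oocytes. Since the cDNA reaches back from the 3' end, such counts test the presence of the transcript and not the loss of its first exon. All 12 oocyte markers were tested, and 8 of them were called higher in mutant oocytes, with a summed level of 19858 to 56665 CPM in controls and 49520 to 111895 CPM in mutants. Of 14 cumulus and granulosa cell markers, 8, among them Amh, Foxl2, Fshr and Inha, had no count in any oocyte. The summed level of the 14 was 18.8 to 66.9 CPM in controls and 81.6 to 150 CPM in mutants, and Cyp19a1, the 1 marker of this list that was called, had 8.52 to 62.8 CPM of it in controls and 79.2 to 147 CPM in mutants. Without Cyp19a1 the list went the other way, at 10.3 to 15.5 CPM in wt/wt oocytes, 1.55 CPM in C3 and 1.83 to 6.98 CPM in mutants, and Nr5a2 (8.59 to 11.6 CPM in wt/wt oocytes and 0.913 to 6.48 CPM in mutants) and Has2 (0.897 to 6.04 and 0 to 0.609 CPM) had lower values in mutants than in wt/wt oocytes. The part of these markers in the results was not tested.

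Counting error limited the lowest members. Of the 60 genes, 54 had a count and 40 passed the filter on low counts that the study used, which keeps the top 60% of genes by total count. Kif12, Kif19a, Kif2b, Kif6, Tuba8 and Tubb1 had no count in any oocyte. Kif2b is a microtubule depolymerase of mitotic cells, Tubb1 is the beta-tubulin of platelets, and Kif6 belongs to a family of axonemal motors. No member below the filter exceeded 4.75 CPM in any oocyte.

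The level of each gene was divided by the length of its longest protein-coding transcript in kilobases to compare genes with each other. In wt/wt oocytes the highest levels per kilobase were those of Kif23 (326 CPM per kb), Tubgcp4 (323), Tubb3 (272), Tubb2a (84.3), Tubg2 (70.8), Tuba1c (58.1) and Kif20a (56.1). The place of Tubb2a rested on wt5, and without that oocyte it stood 12th, at 21.5 CPM per kb, and Kif20a stood 4th. Tuba1c then stood 7th, at 34.2 CPM per kb, below Kif4 (38.8). Kif23 and Kif20a are motors of the central spindle that act in cytokinesis, here the release of the polar bodies. Tubgcp4 is a subunit of the gamma-tubulin ring complex, and Tubb3 is the beta-tubulin best known as a marker of neurons. The next kinesins were Kif4 (36.9), which organises the midzone, Kif18a (25.9), which aligns chromosomes, and Kif20b (22.4), which acts late in cytokinesis. In mutant oocytes Tubb3 (926 CPM per kb) and Tubb2a (922) stood first, followed by Kif23 (412), Tubg2 (219) and Tubgcp4 (195). The reads cover the 3' part of a transcript, and with lengths capped at 3 kb Tubgcp4 (458 CPM per kb) stood above Kif23 (370) and Kif20b (41.6) above Kif18a (29.1).

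**Figure D1:**
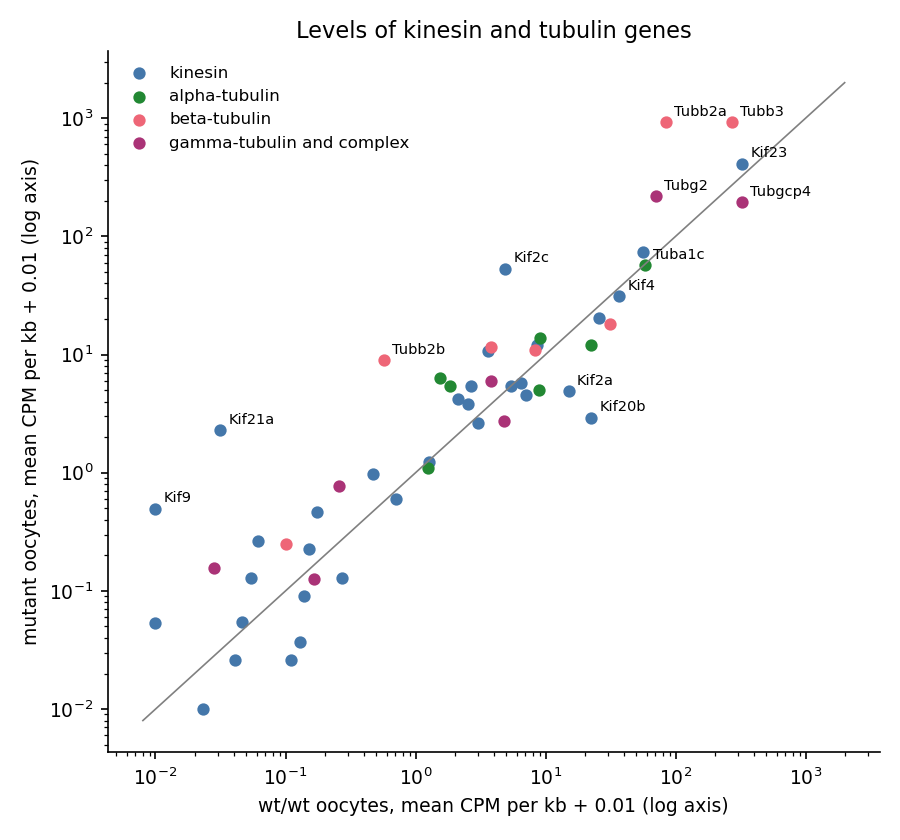
Mean level of each member with a count in the 4 wt/wt oocytes (horizontal) and the 5 mutant oocytes (vertical), in CPM per kilobase of transcript plus 0.01 on log axes, coloured by family; the line marks equal levels. Tubb2a, Kif2c and Kif21a lie far above the line and Kif20b and Kif2a below it, while Kif23 stays near it at 326 and 412 CPM per kb.

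Mutant and control oocytes were compared with edgeR's quasi-likelihood test over all 9198 genes kept, with Benjamini-Hochberg adjustment, and calls required both an adjusted p below 0.05 and an absolute log2 change of 1 or more. Of the 40 members tested, 9 were called higher in mutant oocytes, where 14.7% of all genes tested were called higher, and 2 were called lower, where 11.2% of all genes were. As shares of the members tested these are 22.5 and 5.00%. Kif9, 1 of the 9, had no count in controls and passed the filter through the mutants alone, and without it 8 of 39 members, or 20.5%, were called higher. Over both directions 27.5% of the members and 25.9% of all genes were called, so that the share of calls as such was near that of other genes. Of the 18 tubulin genes tested 6 were called higher, 4 of them beta-tubulins, and 0 were called lower by edgeR, with 1, Tubgcp4, lower at an unadjusted p under 0.05 and called by DESeq2. The tubulins called higher were 3 without wt1, wt4 or D2 and 2 without D1. Of the 22 kinesins tested 3 were called higher and 2 lower. The median log2 fold change was 0.23 over the members, 0.12 over the kinesins, 0.65 over the tubulins and 1.61 over the beta-tubulins, against 0.17 over all genes tested. Leaving out Kif9, which had at most 3 counts in 4 of the mutants, the control and mutant ranges of 5 members did not overlap, where those of 16.2% of all genes tested did not, and with library totals those of 6, where 14.04% of all genes did not. Without D1 the members called higher were 5, and those called lower were 1 without any of wt3, wt4, D1 or D2. The calls over all genes fell as well, to 9.82% higher and 7.76% lower without D1 and to between 8.38 and 8.93% lower without wt3, wt4 or D2. With the trends on GC content and transcript length removed from each oocyte, the members called higher were 5, with Tubb2a and Tubb2b as the 2 tubulins among them, while 11.6% of all genes were higher and 14.2% lower there, and the part of base composition in the other calls was not tested.

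**Figure D2:**
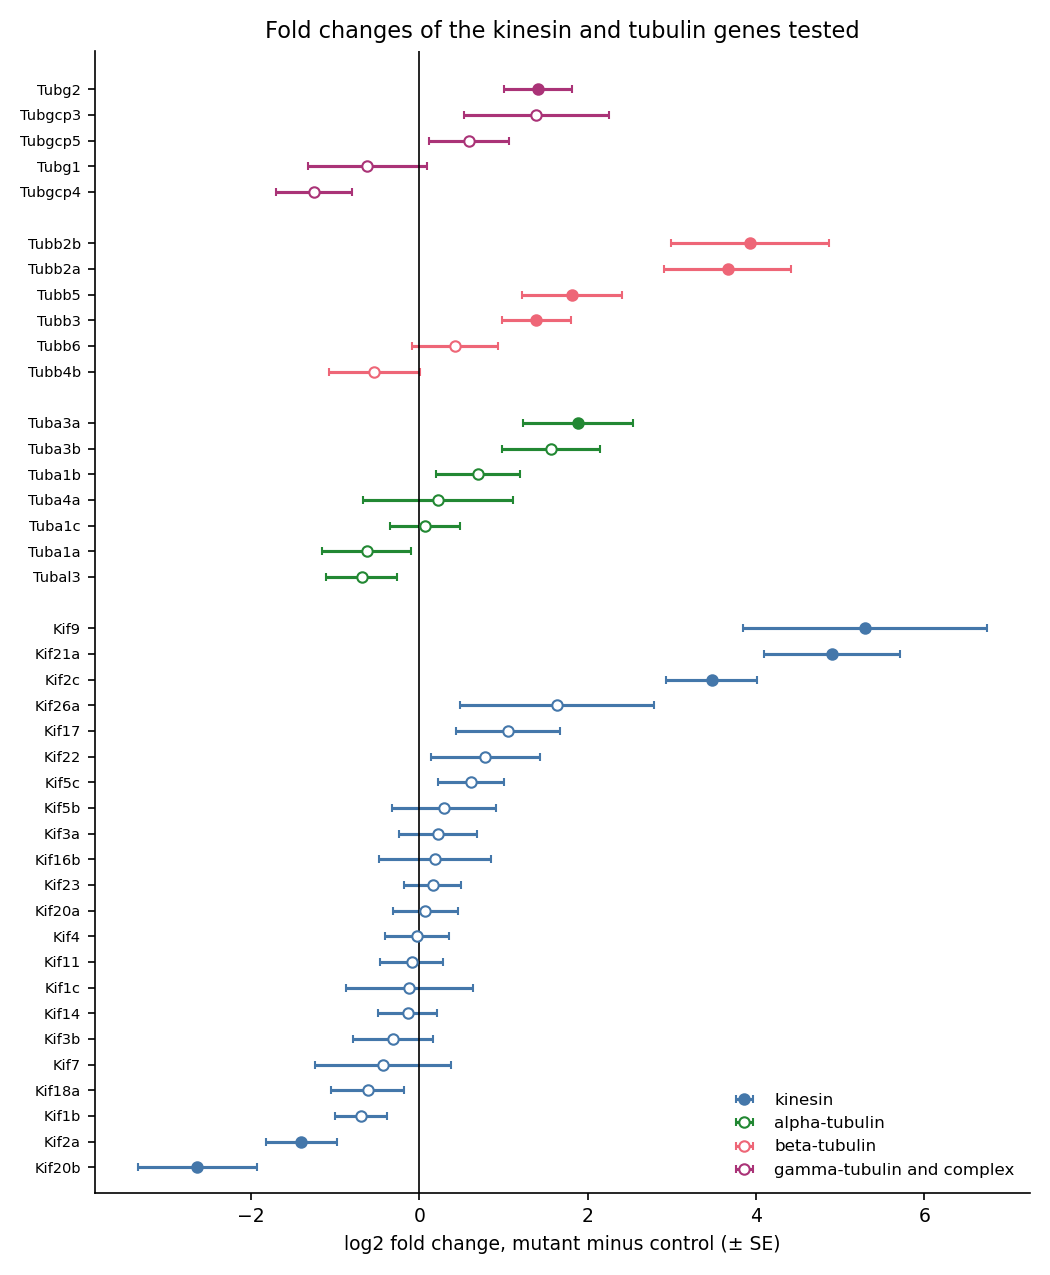
Log2 change from control to mutant oocytes with its standard error for the 40 members tested, grouped by family and sorted by size. Filled points are the 11 called genes. The beta-tubulins are shifted to the right, with a median of 1.61, and among the kinesins Kif9, Kif21a and Kif2c lie furthest to the right and Kif20b and Kif2a furthest to the left, with Kif26a (1.64) and Kif17 (1.06) to the right without a call.

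To show what kind of promoter the called members have, those of 2 that were higher and 1 that was lower were read from RefSeq (GRCm38.p6), as the 250 bases before the start site. Tubb2a, a beta-tubulin (chr13:34078009-34078258, minus strand), and Kif21a, a motor (chr15:91049952-91050201, minus strand), were called higher, and Kif20b, a motor of cytokinesis (chr19:34922108-34922357, plus strand), was called lower. Capitals mark TATAAA, the one match to the motifs searched.
Tubb2a: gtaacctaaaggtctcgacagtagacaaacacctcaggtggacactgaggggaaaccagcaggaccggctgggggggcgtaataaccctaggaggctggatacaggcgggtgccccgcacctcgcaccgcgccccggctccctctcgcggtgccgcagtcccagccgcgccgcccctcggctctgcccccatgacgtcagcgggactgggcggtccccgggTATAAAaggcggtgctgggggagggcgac
Kif21a: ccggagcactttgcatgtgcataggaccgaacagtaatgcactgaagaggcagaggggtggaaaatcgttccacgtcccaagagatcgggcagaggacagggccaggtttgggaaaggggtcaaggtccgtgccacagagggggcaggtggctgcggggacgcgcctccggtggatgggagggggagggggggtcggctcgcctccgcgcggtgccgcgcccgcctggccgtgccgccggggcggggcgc
Kif20b: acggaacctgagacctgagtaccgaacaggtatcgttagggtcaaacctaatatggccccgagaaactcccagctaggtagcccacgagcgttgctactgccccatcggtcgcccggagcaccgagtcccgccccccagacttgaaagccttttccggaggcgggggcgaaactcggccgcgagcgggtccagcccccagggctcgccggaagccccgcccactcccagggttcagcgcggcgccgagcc

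All 3 are rich in CpG, with 22, 23 and 25 CpG and 68.4, 69.6 and 66.8% of G and C. TATAAA (or TTTATA on the other strand) stands in the Tubb2a window, a motif that was chosen for the search after this sequence was seen, and it is found in 11.1% of the promoters of members, in 12.4% of all promoters and in 6.69% of the promoters of genes tested. Of the 9 promoters of members called higher 4 hold it, or 44.4%, 1 each of Tubb2a and Kif2c and 2 of Kif9, and since the motif was taken from the first of these windows this count is a description. RefSeq entries matched 50 of the 60 members, with 54 promoters. The letters CCAAT, or ATTGG on the other strand, part of a box common in promoters of cell cycle genes, are in none of the 3 windows. They are in 40.7% of the promoters of members and in 8, or 57.1%, of the 14 promoters of spindle and cytokinesis motors. The share was 36% in the promoters of genes tested and 33.8% in all 32851 promoters. TTTGAA or TTCAAA, part of an element of cell cycle genes repressed in resting cells, was found in 18.5% of the promoters of members. It was in 5, or 35.7%, of those of the spindle and cytokinesis motors, against 10.8% for genes tested and 16.0% of all promoters. These counts describe the letters of the windows.

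Of the 6 beta-tubulin genes tested, 4 were called higher. The summed level of the 8 beta-tubulin genes was 517, 706, 513 and 1139 CPM in wt1, wt3, wt4 and wt5, 1344 CPM in the f/f oocyte and 3969.7, 4422, 2786, 3355 and 2029 CPM in D1, D2, D3, D4 and D7. Every mutant oocyte was above every control oocyte, and the f/f oocyte was the highest control. Scaled by library totals, which is CPM without the TMM factor, the mutants were again above every control, but the f/f oocyte, at 873, lay below wt3 (940) and wt5 (1552). Beta-tubulin RNA was thus 3312 ± 947 CPM (SD, n = 5) in mutants and 719 ± 294 CPM (SD, n = 4) in wt/wt oocytes. The alpha-tubulin genes, which make the other subunit of the dimer, summed to 206 ± 18.8 CPM (SD, n = 5) in mutant oocytes, with 225 ± 101 CPM (SD, n = 4) in wt/wt and 125 CPM in the f/f oocyte. By library totals they were 179 ± 27.3 (SD, n = 5) in mutants, 300.3 ± 141 (SD, n = 4) in wt/wt oocytes and 81.5 in the f/f oocyte. These sums are descriptions and were not tested.

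Tubb2a, on the minus strand of chromosome 13 (GRCm38, the build also named mm10; 34074274 to 34078007), carried much of this difference. Its counts were 45, 132, 54 and 978 in wt1, wt3, wt4 and wt5, 194 in the f/f oocyte and 2991, 2758, 3042, 14805 and 1530 in D1, D2, D3, D4 and D7. The mutants lay at 763 to 2252 CPM, the controls other than wt5 at 22.1 to 57.0 CPM and wt5 at 439 CPM, so that the groups did not overlap. Tubb2a rose by 3.66 on the log2 scale (standard error 0.76, adjusted p = 0.00325 by edgeR's quasi-likelihood test), and by 5.37 without wt5. Against the f/f oocyte alone, in a fit of the 3 genotypes with a pooled spread, the log2 change was 5.11 (adjusted p = 0.0960). The oocyte marker Nlrp5, a maternal-effect gene, was likewise high in wt5, at 1751 CPM against 114 to 145 CPM in the other controls. Mutants stood at 707 to 1503 CPM. Zp2, Zp3, Bmp15 and Padi6 were also highest among controls in wt5. The other oocyte markers were not, and for Zp1 (15.7 CPM) and Oosp1 (6024 CPM) wt5 was the lowest control. The part of such differences between oocytes in the level of Tubb2a was not tested. The neighbouring Tubb2b, from 34126748 to 34130466 on the same strand, encodes a nearly identical protein. It had 0, 1, 0 and 10 counts in the wt/wt oocytes, 6 in C3 and 33, 15, 21, 383 and 10 in the mutants. In CPM the groups did not overlap, with at most 4.49 CPM in controls and at least 4.99 CPM in mutants, a gap between 10 counts in wt5 and 10 in D7 that the scaling sets, since by library totals wt5 (6.11) was above D7 (4.68). The log2 change was 3.93 (standard error 0.93, adjusted p = 0.00717; against the f/f oocyte alone 3.86, adjusted p = 0.234). Of its 462 counts in mutants 383 came from D4, and the log2 change was 2.93 without D4 and 5.08 without wt5. Only uniquely aligned reads were counted, so reads that the Tubb2a and Tubb2b transcripts share are missing from both.

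Tubb3, on chromosome 8 from 123411424 to 123422015 on the plus strand, was the main beta-tubulin of control oocytes. It had 773, 1353, 1088 and 1281 counts in the wt/wt oocytes, 5700 in C3 and 4056, 4404, 4649, 5719 and 2435 in the mutants. The wt/wt oocytes lay at 427 to 584 CPM and the mutants at 870 to 2683 CPM, but the f/f oocyte, at 1265 CPM, lay within the range of the mutants. By library totals the f/f oocyte stood at 823, between the highest wt/wt oocyte (783) and the lowest mutant (826). This gave a log2 change of 1.39 (standard error 0.41, adjusted p = 0.0216), and against the f/f oocyte alone it was 0.45 (adjusted p = 0.688). The call was lost without wt1, wt3, wt4, D1 or D2, with adjusted p-values of 0.0513 to 0.0622 and log2 changes of 1.20 to 1.38. It was also lost with the GC and length trends removed (0.68, adjusted p = 0.189) and with each library as a sample of its own (0.99, adjusted p = 0.0600).

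Tubb5, the widespread beta-tubulin on chromosome 17 (35833921 to 35838306, minus strand), was scarce in these oocytes. It had 10, 25, 14 and 40 counts in the wt/wt oocytes, 16 in C3 and 86, 39, 26, 400 and 23 in the mutants, and the groups overlapped. Tubb5 was called at a log2 change of 1.82 (standard error 0.59, adjusted p = 0.0332), and the call was lost without any of wt1, wt3, wt4, C3, D1, D2 or D4, with adjusted p-values of 0.0508 to 0.0991, against the f/f oocyte alone (3.09, adjusted p = 0.159), with library totals (1.28, adjusted p = 0.142), with 1 library per oocyte (1.89, adjusted p = 0.0519) and with the GC and length trends removed (1.41, adjusted p = 0.0646). Tubb6 (14.4 ± 8.02 CPM in controls and 19.2 ± 10.02 in mutants, SD, n = 5 each) and Tubb4b (43.0 ± 23.7 and 29.2 ± 28.3 CPM) did not pass the test. D4 stood at 79.7 CPM for Tubb4b, and without it the mutant mean was 16.6 CPM, with the other mutants (13.7 to 18.2 CPM) below the wt/wt oocytes (25.8 to 77.2 CPM) and beside the f/f oocyte (16.2 CPM). Tubb4a, a beta-tubulin of nerve tissue, had at most 2.19 CPM.

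By share, Tubb3 made up 82.6, 82.7, 86.7 and 50.4% of the beta-tubulin CPM in wt1, wt3, wt4 and wt5, 94.2% in the f/f oocyte, and 56.0, 60.7, 59.4, 25.9 and 59.8% in the mutants. Tubb2a made up 4.81, 8.07, 4.30 and 38.5% in the wt/wt oocytes, 3.21% in C3 and 41.3, 38.0, 38.9, 67.1 and 37.6% in the mutants. The shares of Tubb3 and Tubb2a in wt5 were thus closer to those of the mutants than to those of the other wt/wt oocytes, whereas its shares of Tubb4b (6.77%, against 0.345 to 2.38% in mutants) and Tubb6 (2.32%, against 0.193 to 1.01%) were in the range of the other wt/wt oocytes. In D4, Tubb2a outweighed Tubb3. Tubb4b had a share of 6.94 ± 1.58% (SD, n = 4) in wt/wt oocytes, 1.21% in C3 and 0.924 ± 0.838% (SD, n = 5) in mutants. Such shares add up to the whole in each oocyte, so that a gene that rises lowers the share of the others.

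**Figure D3:**
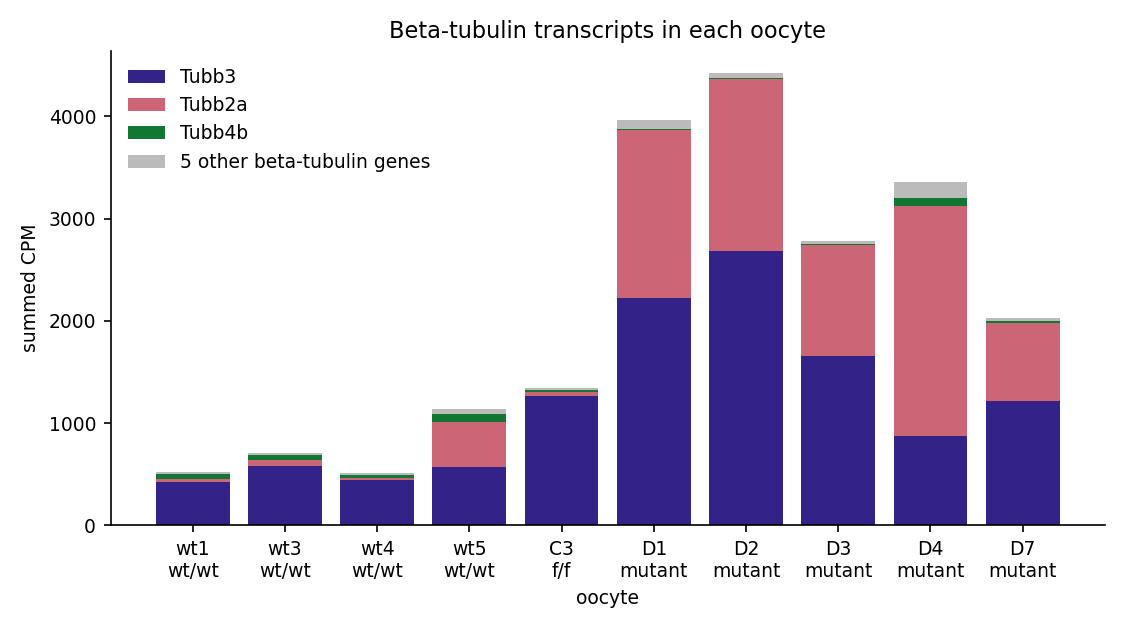
Summed CPM of the 8 beta-tubulin genes in each of the 10 oocytes, as stacked bars of Tubb3, Tubb2a, Tubb4b and the 5 other genes. The mutants reach 2029 to 4422 CPM and no control exceeds 1344 CPM; the Tubb2a part is thick in the mutants and in wt5 and thin in the other controls.

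Among the alpha-tubulins, Tuba1c stood at 53.6 to 258 CPM in wt/wt oocytes, 79.3 CPM in C3 and 97.2 to 134 CPM in the mutants. Its log2 change was 0.07 (standard error 0.41). Tubal3, an alpha-tubulin-like gene, had 68.8 ± 19.3 CPM (SD, n = 4) in wt/wt oocytes, 22.4 CPM in C3 and 37.0 ± 14.6 CPM (SD, n = 5) in mutants, and did not pass the test. In CPM, which are not divided by length, Tubal3 was above Tuba1c in wt1, wt3 and wt4, and only wt5 put the wt/wt mean of Tuba1c above that of Tubal3, since without it the means were 67.8 CPM for Tuba1c and 77.6 CPM for Tubal3. The 1 called alpha-tubulin was Tuba3a, on chromosome 6 from 125278274 to 125286042 on the minus strand, known for its expression in testis. Its counts were 3, 12, 5 and 1 in the wt/wt oocytes, 14 in C3 and 17, 29, 15, 27 and 23 in the mutants, and the groups overlapped in CPM. Tuba3a was called at a log2 change of 1.89 (standard error 0.65, adjusted p = 0.0414 by edgeR). The call was lost without wt1, wt4, wt5, D1, D2 or D7, with adjusted p-values of 0.0603 to 0.115. It was also lost with library totals (1.49, adjusted p = 0.115), with no filter (1.88, adjusted p = 0.0594) and with the GC and length trends removed (1.20, adjusted p = 0.173). Against the f/f oocyte alone the log2 change of Tuba3a was 1.59. Its near-identical copy Tuba3b had a log2 fold change of 1.57 (adjusted p = 0.0557) and was not called by edgeR, but in 6 of the 24 alternatives it was called higher, among them DESeq2 (1.59, adjusted p = 0.0265). Tuba1a, Tuba1b and Tuba4a had 14.3 ± 10.2, 14.7 ± 11.7 and 2.86 ± 2.94 CPM in controls and 9.08 ± 3.65, 23.8 ± 6.17 and 3.06 ± 3.63 CPM in mutants (SD, n = 5 each). None of these differences passed the test, and without wt5 the control mean of Tuba1b was 9.76 CPM. For Tuba4a the control mean was 1.65 CPM without wt1 and the mutant mean 1.47 CPM without D4. The reads of Tuba1a, Tuba1b and Tuba1c can be divided only where their sequences differ.

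Of the 5 gamma-tubulin and complex genes tested, 1 was called higher. Tubg2, 1 of the 2 gamma-tubulins of the mouse, lies on chromosome 11 from 101155907 to 101161787 on the plus strand. It had 127, 321, 314 and 356 counts in the wt/wt oocytes, 1009 in C3 and 1117, 896, 804, 1357 and 538 in the mutants. The wt/wt oocytes lay at 70.2 to 160 CPM, C3 (f/f) at 224 CPM and the mutants at 206 to 613 CPM, so that the f/f oocyte overlapped the mutants. By library totals it stood at 146, within the wt/wt range (92.4 to 217) and below the mutants (196 to 476). Tubg2 was called higher, by 1.41 on the log2 scale (standard error 0.40, adjusted p = 0.0176), and the call was lost without D1 (adjusted p = 0.0542), with the GC and length trends removed (0.66, adjusted p = 0.152), with each library as a sample of its own (1.02, adjusted p = 0.0616) and against the f/f oocyte alone (0.78, adjusted p = 0.528). Tubg1, the gamma-tubulin of most tissues, was far lower, at 7.35 ± 7.65 CPM in controls and 4.90 ± 3.62 CPM in mutants (SD, n = 5 each), and did not pass the test. Its control mean was 4.08 CPM without wt4.

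Tubgcp4 outweighed the other ring subunits. It stood at 987, 1567, 1273 and 1670 CPM in the wt/wt oocytes, at 4351 CPM in C3 and at 637, 1193, 757, 373 and 1193 CPM in the mutants. The f/f oocyte was thus the highest, and the wt/wt and mutant oocytes overlapped. By library totals the f/f oocyte (2828) was closer to the highest wt/wt oocyte (2274), and the highest mutant (1120) was below the lowest wt/wt oocyte (1299). The log2 change was -1.25 (standard error 0.45, adjusted p = 0.0507), just outside the threshold, and Tubgcp4 was called lower in 8 of the 24 alternatives, among them library totals (-1.50, adjusted p = 0.00463). Without C3 it was -0.71 (adjusted p = 0.138) and against C3 alone -2.39 (adjusted p = 0.0289). The exons of Tubgcp4 overlap those of Trp53bp1 on the other strand by 2130 bases, and since the sources used here do not say whether counting used the strand, reads there may belong to either gene. Tubgcp5 (15.6 ± 11.7 and 23.4 ± 2.73 CPM in controls and mutants) and Tubgcp3 (1.06 ± 0.698 and 2.90 ± 2.10 CPM) did not pass the test, and Tubgcp2 and Tubgcp6 had at most 3.29 CPM.

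Among the kinesins, 14 are motors of the spindle or of cytokinesis, of which 10 were tested, 1 was called higher and 2 were called lower. Their median log2 fold change was -0.06. The abundant motors Kif23 (1252 ± 366 CPM in controls and 1400 ± 343 CPM in mutants, SD, n = 5 each), Kif20a (257 ± 131 and 269.5 ± 76.4 CPM) and Kif4 (158 ± 71.3 and 155 ± 39.4 CPM) had log2 fold changes of 0.16, 0.07 and -0.03 with standard errors of 0.34, 0.39 and 0.38. Kif11, which pushes the spindle poles apart, had 29.2 ± 8.04 CPM in controls and 27.5 ± 8.36 CPM in mutants (log2 fold change -0.09, standard error 0.37). Kif14, which acts in cytokinesis, had 53.4 ± 12.9 and 48.8 ± 16.3 CPM, and Kif18a had 104 ± 56.3 and 68.2 ± 21.99 CPM. Kif22, which binds chromosome arms, had 5.03 ± 1.95 and 8.92 ± 6.79 CPM. None of these passed the test, and Kif15, Kif18b and Kif24 were below the filter. Kif20a overlaps Cdc23 by 1271 exonic bases and Kif4 overlaps Pdzd11 by 832 on the other strand, so some of their reads may be those of the neighbour.

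Kif2c, a microtubule depolymerase at centromeres also known as MCAK, was the member with the smallest p. It lies on chromosome 4 from 117159639 to 117182639 on the minus strand. Its counts were 8, 29, 62 and 29 in the wt/wt oocytes, 56 in C3 and 636, 256, 283, 536 and 143 in the mutants. The controls lay at 4.42 to 25.4 CPM and the mutants at 71.3 to 349 CPM, without overlap, and the f/f oocyte, at 12.4 CPM, lay among the wt/wt oocytes. Kif2c rose by 3.47 on the log2 scale (standard error 0.54, adjusted p = 0.000633). Leaving out any oocyte left the call in place, and against the f/f oocyte alone the log2 change was 3.60 (adjusted p = 0.0932).

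Kif21a, a motor that slows microtubule growth and is best known from neurons, lies on chromosome 15 from 90933276 to 91049948 on the minus strand. It had 1, 0, 0 and 0 counts in the wt/wt oocytes, 6 in C3 and 17, 22, 47, 164 and 19 in the mutants. The mutants lay at 9.32 to 24.9 CPM and no control above 1.33 CPM, and the log2 change was 4.90 (standard error 0.81, adjusted p = 0.000893), and 3.44 against the f/f oocyte alone (adjusted p = 0.131). The level of the controls was within a few counts of 0, so the size of this fold is uncertain even though the groups were far apart. Kif9, an axonemal motor on chromosome 9 (110476958 to 110525179, plus strand), had no count in any control and 1, 1, 3, 33 and 1 counts in the mutants. Pooled over the mutants its level was at least 11.6-fold higher than that of 3 counts over the control group, but 33 of the 39 counts came from D4, and without D4 the gene was below the filter. In 4 of the 5 mutants its level was no higher than that of 3 counts in the same oocyte, so no separation of the groups can be read from it.

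Both kinesins that were called lower act on the spindle. Kif20b, on chromosome 19 from 34922361 to 34975745 on the plus strand, had 143, 354, 411 and 222 counts in the wt/wt oocytes, 51 in C3 and 5, 8, 26, 145 and 85 in the mutants. In CPM the wt/wt oocytes lay at 79.0 to 168, C3 (f/f) at 11.3 and the mutants at 2.74 to 42.4, so that the f/f oocyte lay inside the range of the mutants. Kif20b was called with a log2 change of -2.64 (standard error 0.71, adjusted p = 0.0136 by edgeR), and against the f/f oocyte alone it was 0.53. With each oocyte left out in turn it was -3.32 to -2.40. Kif2a, a depolymerase at the spindle poles on chromosome 13 (106958996 to 107022126, minus strand), had 139, 191, 296 and 86 counts in the wt/wt oocytes, 109 in C3 and 40, 31, 76, 195 and 64 in the mutants. The wt/wt oocytes lay at 38.6 to 121 CPM, C3 (f/f) at 24.2 CPM and the mutants at 18.9 to 31.9 CPM. The log2 change was -1.40 (standard error 0.43, adjusted p = 0.0245), it was 0.10 against the f/f oocyte alone (adjusted p = 0.945), and the call was lost without wt3, wt4, D1 or D2 (adjusted p of 0.0519 to 0.0771). For both genes the loss of Kdm1a and what the f/f and mutant oocytes share, which is the strain background, the floxed allele and the naming series of their libraries, cannot be told apart. The exons of Kif2a overlap those of Dimt1 by 1229 bases on the other strand.

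The kinesins of cargo transport did not pass the test. Kif5b, a conventional kinesin, stood at 10.8 to 44.2 CPM in wt/wt oocytes, 174 CPM in C3 and 46.3 to 86.3 CPM in mutants, again with the f/f oocyte outside the wt/wt range. Kif5c stood at 54.2 ± 24.5 and 83.0 ± 27.2 CPM in controls and mutants (SD, n = 5 each). Kif1b, a vesicle motor, was in CPM the 1 tested member below its controls in every mutant oocyte, at 67.4 to 85.9 CPM in controls and 36.2 to 59.5 CPM in mutants, and its log2 change of -0.69 (standard error 0.31, adjusted p = 0.109) was not called, but with library totals Kif1b was called lower (-1.11, adjusted p = 0.0368). With 1 library per oocyte the f/f oocyte (42.9 CPM) was in the range of the mutants.

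**Figure D4:**
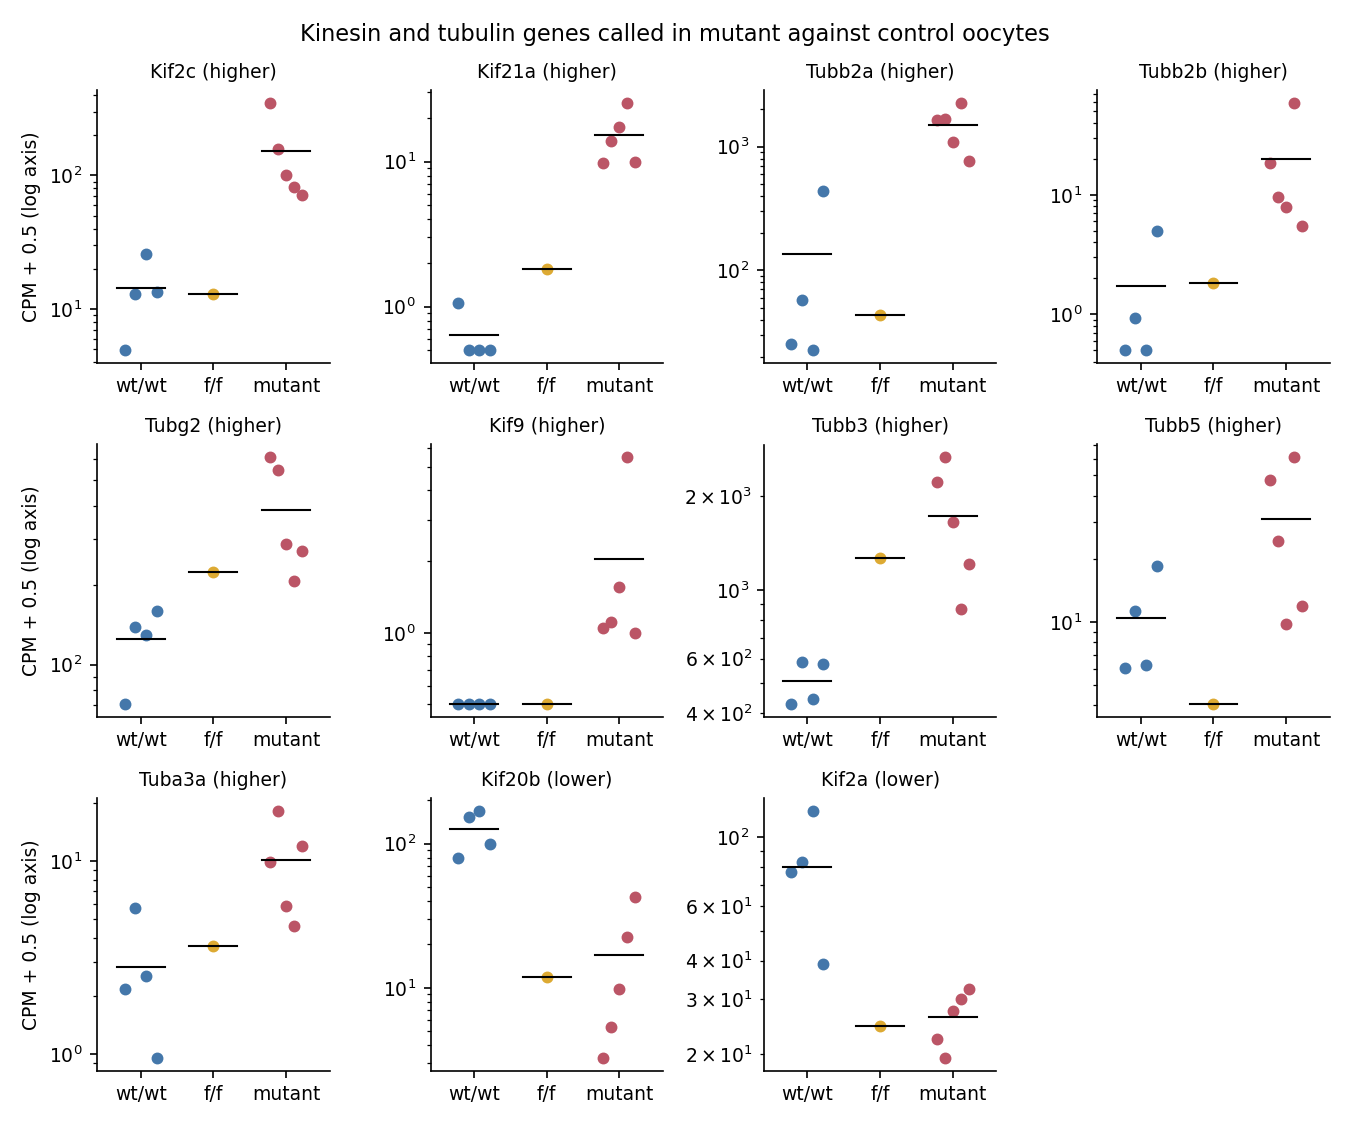
CPM plus 0.5 on log axes in each oocyte for the 11 called members, with wt/wt oocytes in blue, the f/f oocyte in yellow and mutant oocytes in red; the short line is the group mean. Kif2c, Kif21a and Tubb2a show every mutant oocyte above every control, also by library totals, as Tubb2b does in CPM only, and Kif9 rests on 1 to 3 counts in 4 of the mutants. The f/f oocyte lies among the mutants for Kif20b and Kif2a, and in CPM but not by library totals for Tubb3 and Tubg2.

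**Figure D5:**
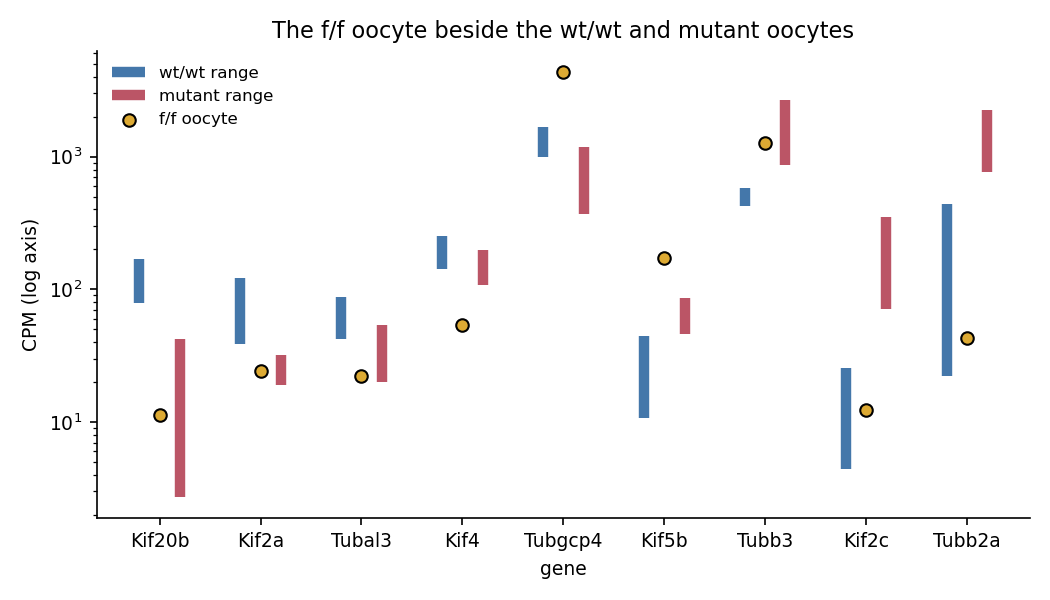
Range of CPM in the 4 wt/wt oocytes (blue bars) and the 5 mutant oocytes (red bars) and the value of the f/f oocyte (yellow points) on a log axis, for 9 members. The f/f oocyte lies at 11.3 CPM for Kif20b and 24.2 CPM for Kif2a, in the mutant range, and at 43.1 CPM for Tubb2a and 12.4 CPM for Kif2c, in the wt/wt range, though by library totals Tubb2a in the f/f oocyte (28.0) is just below the lowest wt/wt oocyte (28.5).

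With the exactly named C3 library alone, and 1 library for each other oocyte, Kif20b (5.48 CPM), Kif2a (23.9 CPM), Tubb3 (1543 CPM) and Tubg2 (319 CPM) were again in the range of the mutants, and Kif2c (11.96 CPM) and Tubb2a (54.3 CPM) in that of the wt/wt oocytes.

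The other genes of the spindle and of microtubules were followed in a list of 119 genes, of which 101 were tested, 21 were called higher and 11 lower, with a median log2 fold change of 0.25. Of all genes tested, 14.7% were called higher and 11.2% lower. The count of higher genes was 12 without wt1, wt4 or D1 and 13 without wt3, and the count of lower genes was 7 without wt4 or D1. The share of all genes called fell as well, to between 9.82 and 10.7% higher without wt1, wt3, wt4 or D1 and to 8.38 and 7.76% lower without wt4 and D1. Among tubulin folding cofactors, 2 of the 6 tested were called higher. They were Tbca, the cofactor that holds free beta-tubulin, at 87.4 ± 21.0 CPM in controls and 274 ± 81.8 CPM in mutants (SD, n = 5 each, log2 fold change 1.65, adjusted p = 0.00293), and Arl2, a GTPase of dimer assembly, at 0.0818 ± 0.183 and 2.83 ± 2.62 CPM. Arl2 stood at 0 to 0.409 CPM in wt/wt oocytes, 0 in C3 and 0 to 6.58 CPM in mutants, so the groups overlapped near the floor. It passed the filter through its counts in mutants, and its call is not read as a rise. The epsilon-tubulin Tube1 was called lower (47.4 ± 9.39 and 22.5 ± 8.33 CPM).

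Of 14 tested partners of the gamma-tubulin ring and of augmin, which nucleates microtubules on microtubules, 6 were called higher and 1 lower. Pcnt alone among the 6 was called in each of the 10 fits that left out an oocyte. Haus1, Haus3, Haus5 and Haus7 were each called in 4 of those fits. Pcnt, the scaffold of the organising centres of the oocyte, rose from 87.0 ± 48.7 to 636 ± 723 CPM (SD, n = 5 each, log2 fold change 2.87, adjusted p = 0.00531), and without D1, at 1904 CPM, the mutant mean was 319 CPM. By library totals its lowest mutant (200) was below the highest wt/wt oocyte (211). Akap9, another scaffold, rose from 3.72 ± 1.36 to 13.6 ± 9.37 CPM. Mzt1, a small subunit of the ring, fell from 111 ± 45.0 to 48.9 ± 10.8 CPM. Of 22 spindle assembly factors, 4 were called higher and 3 lower. Nusap1, which bundles microtubules near chromosomes, rose from 8.19 ± 5.05 to 221 ± 201 CPM (log2 fold change 4.74, adjusted p = 0.000501), with a mutant mean of 141 CPM without D4, and Gpsm2, which orients spindles, from 44.6 ± 15.9 to 237 ± 130 CPM. Spag5, a protein of spindle poles, fell from 101 ± 21.8 to 31.8 ± 11.5 CPM, and Anln, the anillin of the contractile ring, from 351 ± 116 to 140 ± 19.9 CPM, with the f/f oocyte at 195 CPM below the wt/wt range and above that of the mutants, and by library totals (127) among the mutants (85.7 to 147). Racgap1, the partner of KIF23 in centralspindlin, was named after its values were seen. It was called lower (207 ± 84.9 and 96.7 ± 20.4 CPM, log2 fold change -1.10, adjusted p = 0.0358), whereas Kif23 was not, but the f/f oocyte, at 86.8 CPM, lay in the range of the mutants (by library totals at 56.4, just below their lowest value of 56.7), and the call was lost without wt3, wt4, wt5, D1, D2 or D7 (adjusted p of 0.0557 to 0.0965).

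Among 9 spindle kinases and their partners, 2 were called higher and 1 lower, and the chromosomal passenger complex had members in both. Aurkb, its kinase, rose from 9.59 ± 5.29 to 66.6 ± 27.0 CPM (log2 fold change 2.80, adjusted p = 0.000893), and Incenp, its scaffold, fell from 70.4 ± 25.6 to 16.9 ± 3.04 CPM (log2 fold change -2.06, adjusted p = 0.00172). Both groups were separate for each of these genes. In the f/f oocyte Aurkb stood at 5.11 CPM, as low as in the wt/wt oocytes or, by library totals, lower, and Incenp at 29.97 CPM, below the wt/wt oocytes (69.5 to 100 CPM) and above the mutants (13.2 to 20.1 CPM). Plk1, a kinase of spindle assembly, rose from 28.2 ± 13.7 to 106 ± 91.1 CPM. The f/f oocyte (36.2 CPM) and the highest wt/wt oocyte (39.7 CPM) lay in the range of the mutants (31.0 to 227 CPM). By library totals the f/f oocyte (23.5) was below the mutants (29.5 to 176).

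Of 14 tested factors of plus ends and stability, 1 was called higher and 2 lower. Slain2 and Mtus1 fell, from 468 ± 51.9 to 137 ± 46.3 CPM and from 1297 ± 288 to 459 ± 152 CPM, with the f/f oocyte in the wt/wt range for both, though by library totals between the ranges of both groups, and Mtus2 rose from 3.69 ± 5.64 to 22.5 ± 17.2 CPM, with the f/f oocyte at 13.8 CPM in the range of the mutants. With 1 library per oocyte Mtus2 in the f/f oocyte (6.98 CPM) was just below the mutants. Fignl1, a relative of the severing enzyme fidgetin, was the 1 of 5 such genes called, falling from 155 ± 32.6 to 52.0 ± 23.6 CPM, with the f/f oocyte at 113 CPM between the ranges of wt/wt oocytes and mutants, and by library totals (73.6) among the mutants (25.1 to 77.6). Of 16 dynein and dynactin genes, which form the motor that walks opposite to most kinesins, 4 were called higher and 1 lower. Ndel1, a regulator of dynein, rose from 3.25 ± 1.47 to 124 ± 128 CPM (log2 fold change 5.20, adjusted p = 0.000501), with a mutant mean of 75.4 CPM without D4, and the light chain Dynlt1b from 2.88 ± 1.80 to 19.3 ± 6.76 CPM, while the light chain Dynlt3 fell from 70.0 ± 18.3 to 21.9 ± 12.97 CPM. Kifc1, a minus-end kinesin outside the symbol rule, was the 1 of 6 genes called among such kinesins and their partners. Kifc1 fell from 16.1 ± 10.8 to 4.69 ± 1.99 CPM, but the f/f oocyte, at 2.22 CPM, was below each mutant (2.74 to 7.98 CPM). Against the f/f oocyte alone its log2 change was 1.06. As for Kif20b and Kif2a, the loss of Kdm1a and what the f/f and mutant oocytes share cannot be told apart. Of 7 tubulin modifying enzymes, 2 were called higher, Ttll4, which adds glutamate to tubulin, at 0.414 ± 0.460 and 5.49 ± 4.11 CPM, and Agbl5, which trims it, at 1.07 ± 1.37 and 7.12 ± 3.32 CPM. For Ttll4 the f/f oocyte (1.11 CPM) was above the lowest mutant (1.07 CPM), levels of a few counts, and the wt/wt mean was 0.240 CPM. By library totals the f/f oocyte (0.722) was below the lowest mutant (0.924). Of the 32 called genes of this list, 16 were called in each of the 10 fits that left out an oocyte. Of those named, Akap9 was lost without wt1 or D4 (adjusted p of 0.0507 to 0.0856), Plk1 without wt1, D1 or D2 (0.0579 to 0.0927) and Mtus2 without wt1, wt3, wt4 or D1 (0.0589 to 0.0901). Mzt1 was lost without wt1, wt3, wt4, D1, D2 or D4 (0.0566 to 0.0852), and Agbl5 without wt1, wt3, wt4, D1, D2 or D7 (0.0585 to 0.0800). Tube1 passed in 3 of the 10 fits, with adjusted p-values of 0.0517 to 0.0913 without wt3, wt4, wt5, D1, D2, D4 or D7. Kifc1 also passed in 3 of the 10 fits, with adjusted p-values of 0.0729 to 0.112 without wt1, wt4, wt5, D1, D2, D3 or D4. Arl2 fell below the filter on low counts without D1 or D4.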

How the data were processed

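The deposited values are counts per gene, made by the authors from single-oocyte cDNA libraries (poly(A)-primed, single-end reads of 49 bases). Reads were aligned to mm10 with TopHat 2.0.6, unique best alignments were kept, and HTSeq counted reads per RefSeq gene, with no normalization. The submitters' processing notes name HTSeq 0.5.3p9 and DESeq2 1.4.5. The strand setting of the counting is not given in the sources used here. The 14 libraries were reduced to 10 oocytes by summing libraries that share an oocyte name. The suffix DNA in 4 of the names is not explained.

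All genes with a count were ranked by total count and the top 60% kept (9198 of 15432). edgeR 4.0.16 in R 4.3.3 (TMM, glmQLFit, glmQLFTest, Benjamini-Hochberg adjustment over all 9198) compared 5 control with 5 mutant oocytes, with genotype as the one term. The study used DESeq, and DESeq2 1.42.0 was run as an alternative. Standard errors were taken as the log2 fold change divided by the square root of the quasi-F statistic. The procedure was tested on simulated counts. Fits with the f/f oocyte alone as control had 3 genotype groups and a pooled spread. Lengths, coordinates and overlaps came from GENCODE M21 (GRCm38), which matched 98.3% of the gene names and each member, and promoters from RefSeq GRCm38.p6. For libraries that share a name, the Spearman correlation over members with at least 20 counts was 0.926 to 0.973.

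The rule for genes to be named took each called member, each tubulin and gamma-tubulin complex gene, the 5 kinesins highest per kilobase in wt/wt oocytes, 14 spindle and cytokinesis motors, members without a count, and in each role of the list of other spindle genes the 2 called genes of smallest p in each direction. Kif1b, Kif5b, Kif5c and Racgap1 were added after their values were seen. The members and the lists were chosen with earlier results of these data known. The alternatives were other scalings (RLE, upper-quartile, library totals), other filters, an adjusted p alone, 1 library per oocyte, libraries taken as separate samples, a replicate block, wt/wt or f/f controls alone, trends on GC content and length removed (loess, span 0.5), thinned counts, and leaving out each oocyte in turn. Levels of single genes by library totals or with 1 library per oocyte, and means without wt5 or without the highest mutant oocyte, were added after the values were seen. Intervals of counting error and floors of 3 counts do not cover differences between oocytes.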

Additional observations from a re-analysis of the deposited data

Results flagged for a closer look

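Within the control and the mutant oocytes, the CPM of the called members, of Tubgcp4, Tuba3b and Kif1b and of the 4 summed families was searched for an oocyte far from the other 4 of its group, by Dixon's gap rule. Of 35 groups tested, 6 held such an oocyte. The rule flags about 1 in 20 groups of independent, normally spread values. The genes were mostly chosen by their calls in these data and the sets overlap, so this count is a description. The f/f oocyte stood above the wt/wt oocytes for Tubb3 (1265 CPM, the next control at 584, and by library totals 823 and 783), Tubgcp4 (4351 CPM, the next at 1670, and by library totals 2828 and 2274) and the summed gamma-tubulin and complex genes (4597 CPM, the next at 1842, and by library totals 2989 and 2508), the last of which is carried by Tubgcp4. The wt5 oocyte stood above the other controls for Tubb2a, at 439 CPM with the next at 57.0 CPM. The D4 oocyte stood above the other mutants for Kif9, at 5.02 CPM with the next at 1.07 CPM, and for Tubb2b, at 58.3 CPM with the next at 18.1 CPM. Without D4, Kif9 was below the filter, so its flag cannot be read as a result.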

How the results depend on the processing

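The 9 higher and 2 lower members and the 21 higher and 11 lower genes of the spindle list stayed within 1.5 times these counts under DESeq2, RLE and upper-quartile scaling, no filter, filterByExpr, an adjusted p alone, 1 library per oocyte, libraries taken as separate samples, the wt/wt controls alone and thinned counts, an alternative chosen after seeing the data. Under library totals, 4 members and 20 spindle genes were lower and 12 spindle genes higher, and over all genes the median log2 change went from 0.17 to -0.23 and that of the members from 0.23 to -0.13. Over all genes the calls went from 1353 higher and 1031 lower to 963 higher and 1668 lower. With the GC and length trends removed, 5 members were higher and 18 spindle genes lower, and over all genes 11.6% were higher and 14.2% lower, against 14.7 and 11.2%. Against the f/f oocyte alone, 0 members were higher and 1 lower, and 0 spindle genes were called in either direction by edgeR's quasi-likelihood test, which called 0.185% of all genes higher and 0.957% lower there with 1 control oocyte. At an unadjusted p under 0.05, 6 members were higher and 4 lower there, and 17 spindle genes higher and 8 lower, and no other tool was run on that comparison. The log2 fold changes of Kif20b and Kif2a then changed sign, to 0.53 and 0.10. The cause of these shifts was not tested. With each oocyte left out in turn, members called higher were 5 to 10 and lower 1 to 3, and spindle genes higher 12 to 24 and lower 7 to 14, while 9.82 to 18.8% of all genes were higher and 7.76 to 12.7% lower. Of the 11 called members, 5 were called in each of these 10 fits, and tubulins called higher were 2 to 7.

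For the wt/wt and mutant libraries numbered 3, 4 and 5, the labels give no pairing beyond the number. Deviations of same-numbered libraries correlated at 0.0033, 0.138 and -0.031 over genes, and those of other pairs at -0.138 to 0.116. So few values cannot exclude a pairing. Mutant libraries 4 and 5 both carry the name D3, so these 3 mutant libraries are 2 oocytes. A fit with the number as a replicate block called 7 members higher and 3 lower, 15 spindle genes higher and 10 lower, with 12.8% of all genes higher and 10.7% lower (1907 in all), and the same libraries without the block 7 and 3 members, with 1852 of all genes called. Tuba3a, Tubb2b (adjusted p = 0.0585) and Tubb5 (adjusted p = 0.770) were among the members not called with the block.

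Counting error limits members below the filter and Kif9, which 5 of the alternatives did not test. Strain background and library series differ between the wt/wt oocytes and the rest.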
